A study of Arabidopsis thaliana with 4 samples.

Results

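Ribosomal protein genes of the Arabidopsis nucleus were followed in roots of seedlings exposed to aluminium. Members were the nuclear loci whose deposited gene name contains the words ribosomal protein, with names of plastid, mitochondrial, bacterial-size or kinase proteins left out. This gave 308 of 23381 loci. The 4 RNA-seq libraries came from coi1-2 with Al, coi1-2 without Al, Col with Al and Col without Al, 1 library each. Col is the wild type, and coi1-2 carries a point mutation in COI1, which encodes an F-box protein that perceives jasmonate. Each sample held roots of about 500 seedlings, 6 d old, raised and treated in 2% modified MGRL nutrient solution at pH 5.0 and 22 °C, with 10 µM AlCl3 or with 0 µM. The sample protocol gives an exposure of 6 h and the study's design text gives 24 h, so the time is uncertain. The library titles mark the groups without Al as 0 h. The labels do not settle whether these groups were collected at the same time as those with Al. If they were not, Al and time cannot be told apart in the results below.

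Cytosolic ribosomes are built in the nucleolus from ribosomal RNA and about equal numbers of each ribosomal protein. The small subunit decodes the messenger RNA, and the large subunit forms the peptide bond and carries the flexible stalk that recruits elongation factors. In Arabidopsis most of these proteins are encoded by several paralogous genes, and growing root tips are known for high ribosomal protein transcript levels. Loss of single paralogs is known to alter leaf shape, root growth and embryo development.

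The name rule was checked against the orthology column of the deposited tables, which assigns loci to the KEGG catalogue of protein families. Of the 308 members, 183 were cytosolic proteins, 105 of the large subunit and 78 of the small subunit, in 69 families. The other members were 57 proteins of the bacterial type found in plastid or mitochondrial ribosomes, 36 without a class, 20 other proteins such as elongation factor eEF2, and 12 pseudogenes. The label cytosolic therefore holds for 183 of 308 members. A further 40 ribosomal proteins by orthology carry names that the rule misses. Some classes were set by name instead, and the 5 loci named ribosomal protein L18ae family were kept out of the cytosolic classes. Values are given below for the members and for the 183 cytosolic members.

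Promoters are shown for 5 cytosolic members that the results return to: the small-subunit gene with the highest Al response among cytosolic members, and the S8 and L5 paralog pairs. Each line gives the 120 bases before the gene start annotated by RefSeq on TAIR10.1, read along the gene's strand. Capitals mark the site II element (TGGGCC or TGGGCT) and the telo box (AAACCCTA) on either strand, elements known from promoters of plant ribosomal protein and cell-cycle genes.
AT2G36160 (S14), chr2:15169698-15169817, plus strand: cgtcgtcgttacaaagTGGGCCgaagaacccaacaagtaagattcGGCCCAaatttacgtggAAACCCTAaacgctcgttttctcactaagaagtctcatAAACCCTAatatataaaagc
AT5G20290 (S8), chr5:6853107-6853226, minus strand: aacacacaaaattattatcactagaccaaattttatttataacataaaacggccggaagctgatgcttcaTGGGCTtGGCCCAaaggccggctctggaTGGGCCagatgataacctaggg
AT5G59240 (S8), chr5:23903768-23903887, minus strand: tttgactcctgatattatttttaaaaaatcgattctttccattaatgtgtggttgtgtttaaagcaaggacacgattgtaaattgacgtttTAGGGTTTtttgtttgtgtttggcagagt
AT3G25520 (L5, RPL5A), chr3:9271466-9271585, minus strand: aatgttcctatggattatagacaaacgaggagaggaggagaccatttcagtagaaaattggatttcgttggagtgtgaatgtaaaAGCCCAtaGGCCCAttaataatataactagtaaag
AT5G39740 (L5, RPL5B), chr5:15903159-15903278, plus strand: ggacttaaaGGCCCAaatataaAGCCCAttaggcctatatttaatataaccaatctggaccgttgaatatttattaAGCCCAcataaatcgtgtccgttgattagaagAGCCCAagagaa
The S14 promoter held 2 telo boxes and 2 site II elements in these bases, and the RPL5B promoter held 4 site II elements. The weakly read S8 gene AT5G59240 had 1 telo box and 0 site II elements, whereas its paralog AT5G20290 had 3 site II elements.

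Over the 250 bases before the start, site II stood in 68.3% of the 183 cytosolic promoters, in 49.1% of the 57 bacterial-type promoters and in 19.2% of 27444 protein-coding promoters. At least 2 site II hits, counting both strands and overlapping hits, stood in 51.4% of cytosolic and 12% of protein-coding promoters. The telo box stood in 20.8% of cytosolic, 5.26% of bacterial-type and 4.49% of protein-coding promoters. A TATA motif (TATAAA) was about as frequent in cytosolic promoters, 49.7%, as in protein-coding ones, 47.3%. Cytosolic members with site II had a median level of 236 RPKM, against 52 RPKM for those without it. Their median log2 fold change with Al was 0.41 with site II and 0.42 without it in the edgeR fit with TMM scaling described below, and -0.22 and -0.18 when the length trend was also removed.

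The libraries held 7.19 M reads for coi1-2 with Al, 7.42 M reads for coi1-2 without Al, 6.93 M reads for Col with Al and 7.80 M reads for Col without Al. A count of 0 in a library allows up to 3 reads, or 0.385 to 0.433 CPM (reads scaled to the library total). COI1 itself is a point mutant, so its transcript level does not check the genotype. It stood at 29.4 and 29.8 RPKM in coi1-2 with and without Al, against 19.6 and 33.9 RPKM in Col with and without Al. Marker lists moved with Al in both genotypes. Of 10 dividing-cell markers, 7 were lower with Al and 1 higher, and their summed level was 95.19 to 105.7 RPKM with Al and 150.1 to 181.2 RPKM without Al. Of 9 tested green-tissue markers 9 were higher over both genotypes. Their summed levels were 331.6 to 482.1 RPKM with Al and 111.6 to 151.4 RPKM without Al. In coi1-2, PSBO1 had 43.2 RPKM with Al against 46.6 RPKM without Al, and PSAF had 34.6 against 36.6 RPKM. LHCA1, the tenth, had 0 reads in every library. Endodermis markers were lower in 6 of 7 (110.4 to 182.1 against 884.7 to 926.9 RPKM), root hair markers in 5 of 7 (301.9 to 534.1 against 1017 to 1060.0 RPKM) and root cap markers in 3 of 4 (13.59 to 15.12 against 46.94 to 48.33 RPKM). In the same edgeR fit 25.5% of all loci were higher and 26.3% lower. With the length trend also removed, 7 dividing-cell, 6 endodermis, 6 root hair and 3 root cap markers were lower. Higher were then 7 green-tissue and 0 dividing-cell markers, beside 26.5% higher and 23.3% lower of all loci. In whole roots, fewer cells of a type and less RNA per cell cannot be told apart. The part of these markers in the results below was not tested.

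Cytosolic members were among the most highly read genes. RPKM divides reads by transcript length and library total, so levels can be set side by side between genes. The median of the mean RPKM was 171 for cytosolic members, 29.4 for bacterial-type members and 4.2 for all loci. Of the 183 cytosolic members, 110 reached a mean of 100 RPKM and 12 stayed under 1 RPKM. The highest was AT5G20290, an S8 protein of the small subunit, at 1434 and 1813 RPKM in coi1-2 with and without Al and 1612 and 2086 RPKM in Col with and without Al. It was followed by S2 (AT2G41840) and by L18a (AT2G34480), which ranged from 990.2 to 1488 RPKM and from 948 to 1333 RPKM over the libraries. L37a (AT3G60245), L19 (AT1G02780), S26 (AT3G56340), L8 (AT2G18020), L30 (AT1G77940), RPS13A (AT4G00100) and L15 (AT4G16720) completed the 10 highest. The tables count uniquely assigned reads only. Among cytosolic members, the 37 with several isoforms listed reached a median of 19.2 RPKM. The 113 with 1 isoform and under 5% of their 50-base windows shared with another locus reached 294 RPKM. Reads that fit several isoforms or loci would not count as unique, so levels of genes with several isoforms may be minimum values. The part of this in the gap between the 2 medians was not tested.

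Summed over members, cytosolic ribosomal protein genes took 3.623% of reads in coi1-2 with Al and 4.051% in coi1-2 without Al. In Col they took 4.631% with Al and 4.819% without Al. The exact 95% binomial intervals, which cover counting error only, were 3.61 to 3.637%, 4.037 to 4.065%, 4.616 to 4.647% and 4.804 to 4.834% in that order, and none overlapped. The large subunit gave 1.901% of reads with Al against 2.266% without Al in coi1-2, and 2.317% with Al against 2.708% without Al in Col. The small subunit gave 1.722% with Al against 1.785% without Al in coi1-2, and 2.315% with Al against 2.11% without Al in Col. With 1 library per group these shares carry no test.

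With Al, taken over both genotypes, more ribosomal protein genes rose than fell with TMM scaling, and fewer rose than fell in 3 other fits given below. The Al effect was tested on read counts by edgeR's quasi-likelihood test with genotype as an additive term, 2 libraries per arm and TMM scaling, at an adjusted p of 0.05 over all 16477 loci tested. Of the 308 members 271 passed the low-count filter, and 80 of them rose and 21 fell, with a median log2 fold change of 0.35. This is 29.5% and 7.75% of tested members, where all loci gave 25.5% higher and 26.3% lower and a median of -0.03. Among the 169 tested cytosolic members 51 rose and 8 fell, with a median of 0.41. Genes of similar length, from 542 to 1250 bases, gave 43.1% higher, 12.2% lower and a median of 0.59. The spread over genes was small for cytosolic members, with an SD of 0.57 log2 units, against 1.49 for genes of similar length and 1.47 for all loci. These sets differ in level, with a median of the mean RPKM of 171 for cytosolic members and 4.2 for all loci before filtering. The part of counting noise in these SDs was not tested. These counts also moved in refits that left out 1 library and dropped the genotype term, and the 2 changes cannot be told apart. The median of members was 0.64 without coi1-2 with Al, 0.08 without Col with Al and 0.53 without Col without Al. In the same refits 10.4% to 29% of all loci were higher and 10.3% to 27.9% lower. These p-values measure only the spread that the additive model leaves between 4 libraries, since no label names separate cultures within a group. The fit has 1 residual degree of freedom per gene, beside 192.8 prior ones taken from all genes. Each gene's p-value and SE therefore rest mostly on a spread pooled over genes, not on its own spread between libraries.

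**Figure D1:**
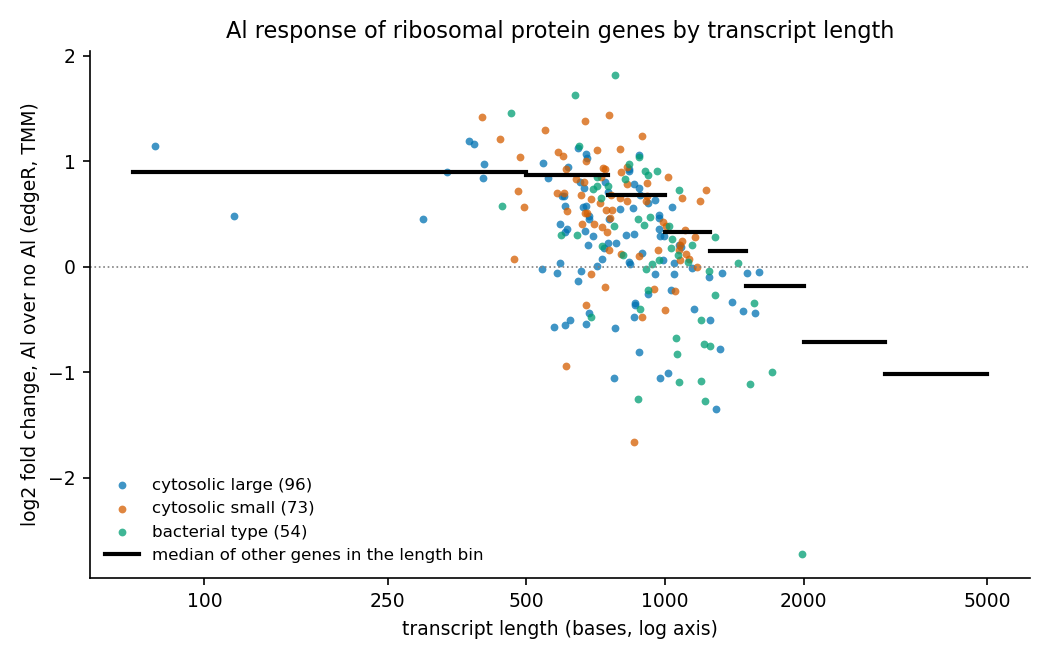
Log2 fold change with Al over no Al (edgeR, TMM) of 96 large-subunit, 73 small-subunit and 54 bacterial-type members against transcript length on a log axis, 1 point per gene, with black lines for the median of all other genes in a length bin. Other genes drop from a median of 0.90 under 500 bases to -1.02 at 3000 bases and more, and members between 500 and 1500 bases mostly lie below the lines; members above 0 here do not all stay above it with other scalings.

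The Al fold change followed transcript length in these libraries. The median of other genes was 0.87 for 500 to 750 bases, 0.68 for 750 to 1000 bases, 0.33 for 1000 to 1250 bases and -0.71 for 2000 to 3000 bases. Cytosolic members of the same bins had medians of 0.53 (64 genes), 0.43 (56 genes) and 0.12 (27 genes) in the first 3 of these, so they lay below other genes of their length. In the shortest bin, under 500 bases, the 14 cytosolic members had a median of 0.93 and the others 0.90. When an offset removed each library's trend with length, 15 tested members rose and 68 fell, a share of 5.54% and 25.1% beside 26.5% and 23.3% of all loci. The median of members was then -0.19, of cytosolic members -0.19, of genes of similar length 0.06 and of all loci 0.01. With library totals alone, which moves the median of all loci to -0.55, 12 members rose and 56 fell (all loci 12.7% and 38.8%) with a median of -0.17. limma-trend on log2 RPKM, with a median of all loci of -0.46, called 26 higher and 72 lower (all loci 14.5% and 36.6%). In each of these 4 fits the median of cytosolic members lay below that of genes of similar length: 0.41 against 0.59, -0.19 against 0.06, -0.10 against 0.07 and -0.10 against 0.05.

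**Figure D2:**
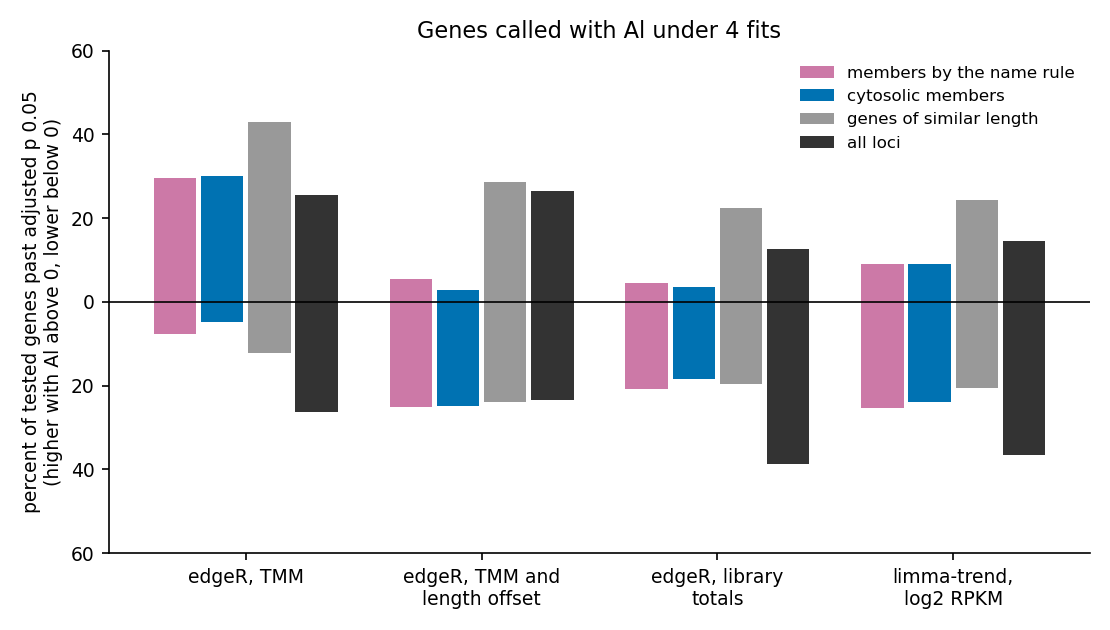
Percent of tested genes past an adjusted p of 0.05 with Al, higher above 0 and lower below 0, for members by the name rule, cytosolic members, genes of similar length and all loci under 4 fits. Members are called higher in 29.5% with TMM scaling and lower in 7.75%, and the balance turns to 5.54% higher and 25.1% lower when the length trend is removed.

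Only a small part of the members was called the same way in all 4 fits: 8 higher and 21 lower of 271 (2.95% and 7.75%). The same count was 12.3% and 18.1% of all loci and 21.8% and 12.2% of genes of similar length. The cytosolic genes among them were 3 of the small subunit that were higher, and 6 of the large and 2 of the small subunit that were lower. Leaving out the library of coi1-2 without Al kept 4 of the 8 and 6 of the 21 past the threshold, and leaving out Col without Al kept 8 and 4. Leaving out coi1-2 with Al kept 8 and 20, and leaving out Col with Al kept 8 and 18. All 29 genes kept their sign in these 4 refits. The genes were picked for a shared direction in fits of these same libraries, most of which each refit reuses, so the kept signs give no independent support. The counts kept stand without a share of all loci.

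Among small-subunit genes, S14 (AT2G36160), whose protein lies in the platform of the subunit, had the highest response of the cytosolic members. It stood at 757.9 RPKM with Al against 482 RPKM without Al in coi1-2, and at 1358 RPKM with Al against 588.7 RPKM without Al in Col. Both libraries with Al were above both without it. The log2 fold change was 1.44 ± 0.31 (SE, adjusted p = 4.04e-05, edgeR), and 0.76 with the length offset (adjusted p = 0.00481). The S29 gene AT3G43980, which encodes a small zinc-binding protein, gave 109.5 RPKM with Al against 66 RPKM without Al in coi1-2 and 187.2 RPKM against 89.1 RPKM in Col, a rise of 1.42 ± 0.29 (adjusted p = 1.14e-05). The S16 gene AT3G04230 gave 32.4 against 21.7 RPKM in coi1-2 and 54.9 against 25.1 RPKM in Col, a rise of 1.38 ± 0.30 (adjusted p = 5.34e-05). These 3 genes are the cytosolic ones that were higher in all 4 fits. S27 (AT2G45710), with 101 against 69.2 RPKM in coi1-2 and 161.7 against 80.1 RPKM in Col, also rose (adjusted p = 5.62e-05), and its call ended with the length offset (0.45, adjusted p = 0.0505). Among the most highly read genes, S26 (AT3G56340) rose to 993.7 against 791.8 RPKM in coi1-2 and 1492 against 951.7 RPKM in Col (adjusted p = 0.00422), with a length-offset value of 0.25 (adjusted p = 0.348), while S8 (AT5G20290) had 0.16 ± 0.33 (adjusted p = 0.705).

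Of the 8 cytosolic genes that fell, 6 encode large-subunit proteins. AT5G59240, the second S8 gene, had 3.73 RPKM with Al against 10.4 RPKM without Al in coi1-2 and 1.35 RPKM against 11.5 RPKM in Col. Both libraries with Al were lower than both without it, and the log2 fold change was -1.66 ± 0.43 (adjusted p = 0.000557, edgeR). It rests on 23 against 66 reads in coi1-2 and 8 against 77 reads in Col. RPL5B (AT5G39740, also OLI7), whose protein binds a ribosomal RNA of the large subunit before assembly, had 34.9 RPKM with Al against 96.1 RPKM without Al in coi1-2 and 18.1 against 87.6 RPKM in Col. Its change was -1.35 ± 0.29 (adjusted p = 2.85e-05), and 2 isoforms are listed, so its level may be a minimum. The L7 gene AT1G80750 had 34.5 against 83.1 RPKM in coi1-2 and 19.8 against 72.6 RPKM in Col (-1.05 ± 0.29, adjusted p = 0.00104). A second L7 gene, AT2G44120, fell by 0.78 on the log2 scale (adjusted p = 0.0213). The L19 genes AT3G16780 and AT4G02230 fell by 1.01 and 0.81 (adjusted p = 0.0016 and 0.012). AT1G29965 (L18a) and AT1G23410 (S27a fused to ubiquitin) also fell, by 1.05 and 0.94, but share 80% and 100% of their 50-base windows with another locus and are uncertain.

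Gaps in Al response between paralogs ranged from narrow to wide, and no difference between paralogs was tested. Of 63 families with at least 2 members, 55 had the same most read member in every library. Over the 63 families the most read member held a median of 65.7% of the family's reads. Only unique reads count, so paralogs with several isoforms or shared windows may lose reads in every library. The part of this in these shares was not tested. The narrowest gaps in Al fold change between paralogs of at least 5 RPKM were 0.03 in L32, 0.04 in L30 and 0.07 in L7a. The widest, 1.81, was in S8, 0.16 for AT5G20290 and -1.66 for AT5G59240. The next were L18a (AT3G14600 at 0.56 and AT1G29965 at -1.05), L35a (AT1G74270 at 0.95 and AT1G07070 at -0.57), L34 (AT1G69620 at 0.75 and AT3G28900 at -0.50) and L7 (AT2G01250 at 0.19 and AT1G80750 at -1.05). AT5G59240, AT1G29965 and AT1G80750 were called lower. AT1G74270 and AT1G69620 were called higher (adjusted p = 0.00314 and 0.029), and both calls ended with the length offset, at 0.16 and -0.01. In L34 the share of the family's reads on AT1G69620 was 79.8% with Al against 66.2% without Al in coi1-2 and 81.9% against 65.7% in Col. In L31 (AT2G19740) it was 30% against 16.6% in coi1-2 and 36.2% against 18.5% in Col. In L5 the share on RPL5B was 17% with Al against 26% without Al in coi1-2 and 12.6% against 21.7% in Col. A share within a family does not depend on the library scaling, but a trend with transcript length can move it where paralogs differ in length. For these 3 genes the share moved the same way in both genotypes. With the length offset the fold change of AT1G69620 stood at -0.01, that of AT2G19740 turned negative and that of RPL5B was -1.50. L31 and L5 do not belong to the 5 families with the widest gaps.

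**Figure D3:**
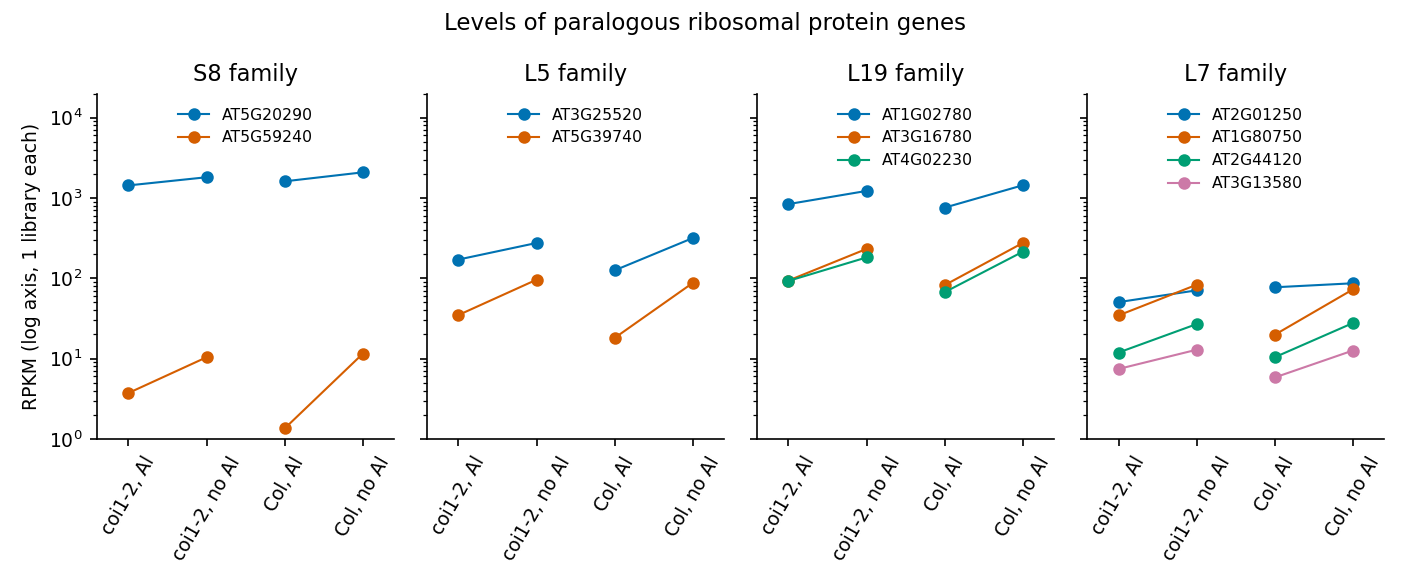
RPKM on a log axis of the members of the S8, L5, L19 and L7 families in the 4 libraries, 1 point per library, with lines joining the libraries of 1 genotype. AT5G59240, AT5G39740, AT3G16780, AT4G02230 and AT1G80750 are lower in each library with Al than in the same genotype without Al.

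Median log2 fold changes were 0.60 for the 73 tested small-subunit genes, of which 30 rose and 2 fell, and 0.29 for the 96 large-subunit genes, of which 21 rose and 6 fell (all loci 25.5% and 26.3%). Over the refits without 1 library the small subunit had medians of 0.25 to 0.96 with 0 to 48 higher, and the large subunit -0.01 to 0.59 with 0 to 48 higher. The median of the large subunit was below 0, with 6 higher and 14 lower, without Col with Al, and neither subunit had a gene called higher without coi1-2 without Al. With the length offset the medians were -0.11 and -0.32, with 4 higher and 12 lower of the small and 1 higher and 30 lower of the large subunit. Small-subunit medians were above large-subunit medians with library totals (0.09 and -0.23) and with limma (0.07 and -0.22) as well. Median lengths were 751 bases for the small and 750 bases for the large subunit, with ranges of 378 to 1227 and 78 to 1598 bases. The part of length in the difference between the classes was not tested. No test was made of this difference between classes.

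Among stalk genes, the P2 gene AT2G27720 rose by 1.07 ± 0.29 (adjusted p = 0.000954), with 116 against 101.5 RPKM in coi1-2 and 203.4 against 107.6 RPKM in Col, and the P1 gene AT4G00810 rose by 1.03 ± 0.31 (adjusted p = 0.00298). Both calls ended with the length offset (0.32 and 0.28, adjusted p = 0.177 and 0.321). The P0 genes AT3G09200 and AT3G11250, whose protein anchors the stalk to the ribosome, had -0.06 and -0.10 (adjusted p = 0.873 and 0.797). P3 (AT4G25890), a stalk protein of plants, had 0.58 (adjusted p = 0.0741).

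Of 21 tested ribosomal proteins on a list with known growth or development roles in mutants, 5 rose and 2 fell (all loci 25.5% and 26.3%), with 2 and 6 under the length offset (all loci 26.5% and 23.3%). RPS13A (AT4G00100, PFL2), whose loss gives pointed first leaves, rose by 0.94 ± 0.31 (adjusted p = 0.00724), as did RPS5A (AT3G11940, AML1; 0.85, adjusted p = 0.00904), RPS18A (AT1G22780, PFL1; 0.68, adjusted p = 0.0429) and RPL10B (AT1G26910; 1.06, adjusted p = 0.00086). With the length offset the calls of RPS13A (0.23, adjusted p = 0.378), RPS5A (0.41, adjusted p = 0.0827) and RPS18A (0.01, adjusted p = 0.978) ended, and RPL10B was at 0.48 (adjusted p = 0.0399). The other riser, RPL10C (AT1G66580; 1.21, adjusted p = 0.000361), is no member by name. RPL5B and RPL3B (AT1G61580; -1.04, adjusted p = 0.00107), the second of which is also no member, fell. RPL24B (AT3G53020, STV1), known for letting ribosomes restart on messenger RNAs with upstream reading frames, had 0.05 (adjusted p = 0.895), and RPL5A (AT3G25520) had -0.50 (adjusted p = 0.141). The S6 genes, whose protein is the classical target of the TOR and S6 kinase pathway, had -0.41 for RPS6A (AT4G31700, adjusted p = 0.215) and 0.35 for RPS6B (AT5G10360, adjusted p = 0.309). With the length offset RPL24B (-0.56, adjusted p = 0.0197), RPL5A (-0.69, adjusted p = 0.00523) and RPS6A (-0.87, adjusted p = 0.000396) were called lower.

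Members outside the cytosolic classes held the widest changes. The highest were AT1G53560 and AT3G14595, both named L18ae family and kept out of the cytosolic classes by that name. With them stood the L34e-named AT3G06180 and L18ae-named AT1G17080. AT1G53560 had 91.8 RPKM with Al against 12.4 RPKM without Al in coi1-2 and 141.4 against 12.2 RPKM in Col, a rise of 3.73 ± 0.32 (adjusted p = 1.29e-21). The other 3 rose by 2.12, 1.59 and 1.57 (adjusted p = 5.64e-10, 1.81e-06 and 1.43e-06). The bacterial-type L33 gene AT5G18790 rose by 1.46 (adjusted p = 8.92e-05), with a length-offset value of 0.54 (adjusted p = 0.0883). The lowest was AT1G64880, a bacterial-type S5 protein, with 9.59 RPKM with Al against 58 RPKM without Al in coi1-2 and 3.56 against 54.9 RPKM in Col (-2.72 ± 0.31, adjusted p = 3.34e-14). AT3G58660, named L1p/L10e and classed as another protein, fell by 1.97 (adjusted p = 5.02e-09), and the bacterial-type genes AT5G64670, AT4G36420, AT2G42710 and AT4G30930 (NFD1, known for a role in the fusion of nuclei in gametes) fell by 1.08 to 1.27. Of 54 tested bacterial-type members 15 rose and 9 fell, or 27.8% and 16.7% beside 25.5% and 26.3% of all loci. With the length offset 1 rose and 15 fell, or 1.85% and 27.8% beside 26.5% and 23.3% of all loci. The 40 ribosomal proteins that the name rule misses gave 15 higher, 2 lower and a median of 0.41, with the length offset 1, 12 and -0.26.

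Of 29 tested ribosome biogenesis genes 23 fell and 1 rose, with a median of -1.48, and with the length offset 20 fell and 1 rose with a median of -0.88. Their summed level was 643.3 RPKM with Al against 1952 RPKM without Al in coi1-2 and 419.3 against 2228 RPKM in Col. RRP5 (AT3G11964, an assembly factor of the pre-ribosome), NOP5-1 (AT5G27120, a core protein of small nucleolar particles) and NSN1 (AT3G07050, a nucleolar GTPase) were the lowest, with changes of -2.63, -2.42 and -2.36 (adjusted p = 1.77e-13, 2.4e-12 and 6.67e-12). FIB1 (AT5G52470, fibrillarin) rose by 0.83 (adjusted p = 0.0159), and REIL2 (AT2G24500) and WDR12 (AT5G15550) had 0.17 and 0.01 (adjusted p = 0.63 and 0.989). The difference between these genes and the ribosomal proteins was not tested. Of 26 tested translation factors, 3 of them members by name, 10 rose and 3 fell. eIF4A2 (AT1G54270, the initiation helicase), TCTP (AT3G16640) and eIF6A (AT3G55620, which keeps the subunits apart) rose by 1.68, 1.52 and 1.18 (adjusted p = 2.47e-07, 0.000297 and 0.000251), while eIF4G (AT3G60240), eIF3a (AT4G11420) and PAB4 (AT2G23350) fell (adjusted p = 0.00032, 7.06e-05 and 0.0228). eIF4G was near 0 in every library, with 0.0755 against 0.464 RPKM in coi1-2 and 0 against 0.557 RPKM in Col. eIF3a had 37.1 against 111.3 RPKM in coi1-2 and 26.8 against 110.2 RPKM in Col. The elongation factor eEF2 (AT1G56070), a member by its name, had 686.8 against 780.1 RPKM in coi1-2 and 565.2 against 956.6 RPKM in Col. Its change was 0.04 (adjusted p = 0.925) with TMM scaling and 0.92 (adjusted p = 0.00357) with the length offset. With that offset eIF3a and PAB4 were at -0.34 and -0.07 (adjusted p = 0.152 and 0.785). The partner list had 2 higher and 2 lower of 6: TCP20 (AT3G27010, a factor that binds site II elements) and RACK1A (AT1G18080) rose by 0.96 and 0.76, and S6K2 (AT3G08720) and RACK1C (AT3G18130) had -1.11 and -0.85, both past the threshold (adjusted p = 0.0308 and 0.0079), the call of S6K2 ending with the length offset (-0.68, adjusted p = 0.206). The shares called over all loci stand above, 25.5% higher and 26.3% lower.

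**Figure D4:**
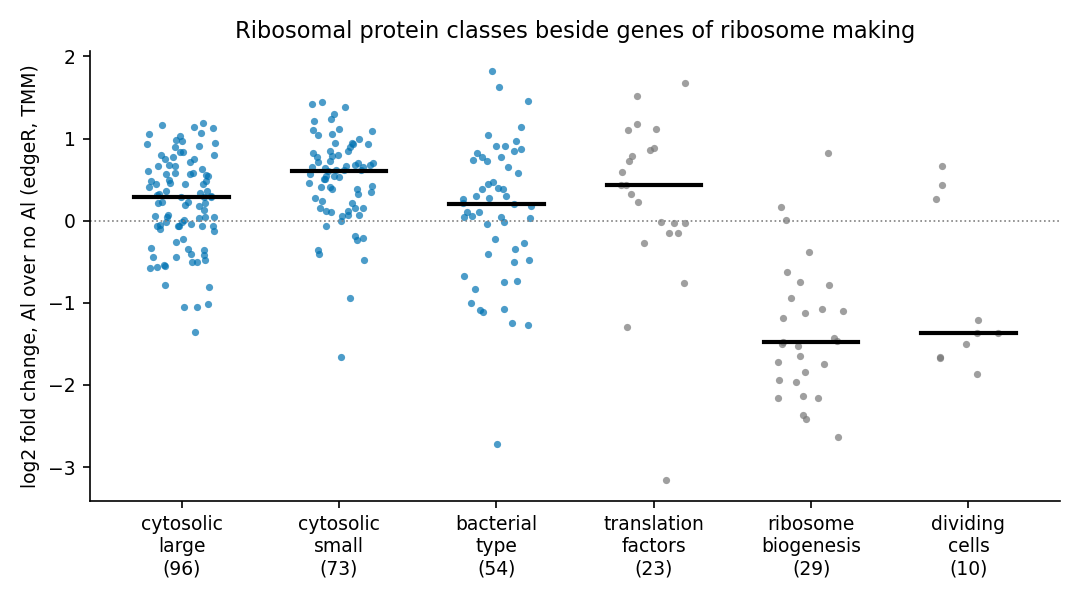
Log2 fold change with Al over no Al (edgeR, TMM), 1 point per gene and a bar at the median, for the cytosolic and bacterial-type members in blue and for the non-member genes of 3 lists in grey. Biogenesis genes have a median of -1.48 and large- and small-subunit genes of 0.29 and 0.60, the last 2 of which turn to -0.32 and -0.11 with the length offset.

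Within each genotype, 2 libraries were compared by the ratio of RPKM + 0.5 and a gene was called at 2-fold with an exact 95% counting interval that excludes no change, with no test. In coi1-2, 4 of 285 members past a filter of 1 RPKM were higher with Al and 19 lower, or 1.4% and 6.67%, beside 9.37% and 23.2% of all loci and 14.8% and 15.1% of genes of similar length. In Col, 12 were higher and 46 lower, or 4.21% and 16.1%, beside 11.4% and 35.8% of all loci and 20.4% and 17.6% of genes of similar length. Medians of members were -0.16 in both genotypes, and those of all loci -0.32 in coi1-2 and -0.59 in Col. With TMM factors applied to RPKM the calls turned to 10 higher and 8 lower in coi1-2 (3.51% and 2.81%) and to 74 higher and 18 lower in Col (26% and 6.32%). With these factors the shares of all loci were 14.7% and 14.7% in coi1-2 and 22.2% and 20.5% in Col, and those of genes of similar length 23% and 10.2% in coi1-2 and 38.8% and 8.59% in Col. Of the 4 and 19 members called in coi1-2, 3 and 18 were also called in Col, which is 75% and 94.7% of the coi1-2 calls and 25% and 39.1% of the Col calls, and 0 were called in opposite directions. Across the 175 cytosolic members past the filter the ratios of both genotypes had Pearson's r = 0.814, over genes that are not independent replicates and with libraries of like depth.

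In coi1-2 against Col, taken over both treatments, no member passed an adjusted p of 0.05 in edgeR. The counts were 0 higher and 0 lower of 271, beside 0.158% higher and 0.431% lower of all loci and 0.0761% and 0.742% of genes of similar length. With the length offset these shares were 0.176% and 0.443% of all loci and 0.266% and 0.514% of genes of similar length. The members' counts were 0 and 0 with DESeq2, limma-trend and every other fit tried. At an unadjusted p under 0.05 in edgeR, 0 of 271 members were higher and 37 lower, beside 598 higher and 720 lower of 16477 loci. The values nevertheless leaned 1 way. The median log2 fold change was -0.46 for cytosolic members, against -0.20 for genes of similar length and 0.01 for all loci. Below 0 lay 162 of 169 cytosolic members, beside 3754 of 5255 genes of similar length and 8008 of 16477 loci. Refits that left out 1 library also dropped the Al term, and these 2 changes cannot be told apart. In them the median of cytosolic members was -0.18 without Col with Al and -0.71 without Col without Al. It was -0.62 without coi1-2 with Al and -0.39 without coi1-2 without Al. With the length offset it was -0.22 and of genes of similar length -0.02. Without Al the TMM factors of the libraries were nearly equal (1.197 for coi1-2 and 1.194 for Col). There 161 of 175 cytosolic members had a ratio below 0, beside 2972 of 5893 genes of similar length and 8452 of 17514 loci. The median of cytosolic members was -0.25, with quartiles of -0.33 and -0.17, against -0.00 for genes of similar length and 0.01 for all loci. With Al, 140 of 175 cytosolic members lay below 0, beside 3284 of 5893 genes of similar length and 5933 of 17514 loci. Medians were -0.32, -0.06 and 0.26 in that order. Each of these contrasts rests on 1 library per genotype.

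**Figure D5:**
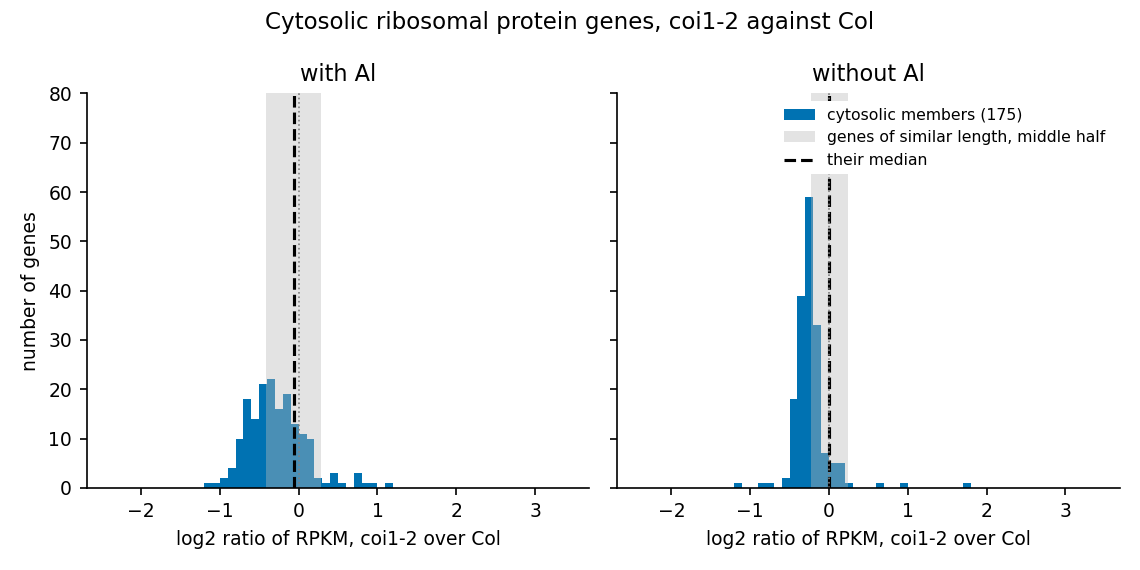
Number of cytosolic members by log2 ratio of RPKM in coi1-2 over Col, with Al on the left and without Al on the right, beside the median (dashed) and the range between the quartiles (grey) of genes of similar length. Of 175 cytosolic members 140 lie below 0 with Al and 161 without Al, beside 3284 and 2972 of 5893 genes of similar length.

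Single members called between the genotypes were few. With Al, 4 were higher and 3 lower in coi1-2 (all loci 7.87% and 1.87%, genes of similar length 2.7% and 3.33%), and with TMM factors applied 2 and 24, or 0.702% and 8.42%, beside 3.04% and 4.65% of all loci and 1.22% and 8.5% of genes of similar length. The share lower is then close to that of genes of similar length. Without Al, 0 were higher and 2 lower (all loci 1.43% and 1.34%, genes of similar length 1.85% and 1.93%). The cytosolic ones were AT5G59240 (S8), with 3.73 RPKM in coi1-2 against 1.35 RPKM in Col with Al, AT2G40205 (L41), with 46.7 against 95.8 RPKM with Al, and AT2G27710 (P2), with 3.94 against 9.67 RPKM without Al. L41 is among the shortest proteins known, and AT2G40205 shares 51% of its windows with another locus. Differences of the Al response, the log2 ratio in coi1-2 minus that in Col, had a median of -0.01 over members, with 12 at 1 or more and 5 at -1 or less (all loci 10.7% and 4.65%, median 0.25, and genes of similar length 5.74% and 7.36%). AT1G64880, AT3G58660 and AT5G59240 were among the 12, at 1.24, 1.27 and 1.34: their ratios with Al were -2.53, -1.82 and -1.36 in coi1-2 against -3.77, -3.09 and -2.70 in Col. With TMM factors applied the counts turned to 5 and 12, and with a filter of 5 RPKM they were 6 and 2. No residual degrees of freedom are left for a test of this difference.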

How the data were processed

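Roots of 4 groups were profiled, 1 library each. Per the labels' protocols, poly(A) RNA was taken up with oligo(dT), broken into fragments and reverse transcribed from random hexamers for Illumina sequencing, with no step that keeps strand. The deposited counts hold unique reads for each transcript, per the file headers. Only transcripts with at least 1 read are listed. The deposited RPKM values scale those reads by transcript length and library total, per the file headers. The authors' coverage column, in percent of transcript length per the file headers, had a median of 89.7 to 91% for members of at least 5 RPKM. Aligner and genome build: not given in the sources used here. Coordinates shown are TAIR10.1, where all 308 members overlap the same RefSeq gene.

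Counts and RPKM were summed over isoforms, giving 23381 loci from 26912 transcripts. Subunit classes and families come from the deposited KEGG Orthology column, since many names carry no subunit letter; AT5G57060, matched only through its second isoform's text, was left out. Tests used edgeR 4.0.16 (filterByExpr, TMM, glmQLFit, both factors additive, Benjamini-Hochberg adjustment; 1 residual degree of freedom, common dispersion 0.0385), with R 4.3.3; SE is the fold change over the square root of F. Alternatives used DESeq2 1.42.0 and limma 3.58.1, other scalings and filters. Library pairs used log2 ratios of RPKM + 0.5, which understate changes of low genes, with exact Clopper-Pearson 95% intervals that cover counting error only. Length is that of the longest isoform listed, and genes of similar length lie between the 10th and 90th percentile of members. Genes named are the 8 highest and 8 lowest members of at least 5 RPKM, the 10 highest levels, stalk and development-role genes, the 5 families with the widest gaps and 3 extremes of each list; some are left out for length, and the other falling or rising cytosolic genes were named after their values were seen. The members and lists were chosen with earlier results of these data known.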

Additional observations from a re-analysis of the deposited data

How the results depend on the processing

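The Al counts of members (80 higher, 21 lower) kept within 1.5 times with DESeq2 size factors (74 and 20), no low-count filter (72 and 20) and loci with 1 isoform (65 and 17). All loci gave 25.6% higher and 25.1% lower, 18% and 18%, and 25.6% and 26.2% in that order. The members' counts moved to 12 and 56 with library totals, 15 and 68 with the length offset and 26 and 72 with limma-trend. DESeq2 gave 52 and 13, or 16.9% and 4.22% of members, beside 12.2% and 9.57% of all loci. With TMM scaling in edgeR (all loci 25.5% and 26.3%) the counts were 2 and 0 of 8 for members with 60S or 40S in the name. They were 34 and 4 of 104 for cytosolic members with 1 isoform and under 5% shared windows, a choice added after seeing the data. Leaving out each library gave 4 to 137 higher and 4 to 27 lower; an arm with 1 library is assumed to vary like the other. The genotype counts stayed at 0 in all of these. Of the library pairs, TMM factors gave 74 higher and 18 lower for Al in Col, 10 and 8 for Al in coi1-2, 2 and 24 for coi1-2 against Col with Al, and 5 and 12 for the difference of responses. A filter of 5 RPKM gave 2 higher for coi1-2 against Col with Al, 1 lower without Al, and 6 and 2 for the difference; other pair counts stayed within 1.5 times. The share of reads on members in coi1-2 with Al, coi1-2 without Al, Col with Al and Col without Al was 4.066, 4.529, 5.05 and 5.358% with 1 isoform, 6.185, 7.646, 7.159 and 8.915% of summed RPKM, and 0.02038, 0.01959, 0.03331 and 0.02419% for names with 60S or 40S. A length window of the 25th to 75th percentile gave 46.2% higher and 10.6% lower, against 43.1% and 12.2%. Of 373 values of 54 named members, 298 kept their side of the threshold, 48 lost a call and 20 gained one. Reversed values were -0.77 for AT3G60245, -0.56 for AT3G53020, -0.01 for AT1G69620 and -0.14 for AT2G19740 with the length offset, -0.48 for AT3G60245 with limma, and -0.47 for AT1G56070 with library totals and limma; the causes were not tested. No paired analysis was possible because each group has 1 library, so replicate numbers pair nothing. The Al fit does compare libraries within a genotype through its genotype term. Depth limits genes of few reads: a count of 0 allows 3 reads.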
